A study of Medicago truncatula with 6 samples.

Results

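Medtr4g116990 and Medtr4g117000 are 2 neighbouring genes of Medicago truncatula, both annotated in the study's tables as glycoside hydrolase family 18 (GH18) proteins. Their IDs follow each other in the numbering of chromosome 4. They were picked by ID, with their levels in these libraries known, as 2 of the 50897 genes listed in each count file. Their level before and after treatment with Nod factors (NF) is therefore given as a description, without a test. The libraries were made from root hairs of wild type A17 seedlings (ecotype Jemalong A17), aged 5 days, treated on the root either with sterile water (control) or with NF at 10 nM, applied as 50 µl to each plant, for 4 h or 20 h. Each sample pooled the root hairs of 100 plants, taken from root segments without the tip. Both NF treatments are represented by replicates 1 and 2, described as independent biological repeats, and the control by replicate 2. Control replicate 1 is not analysed here, so the control has no replicate and no SD. The duration of the water treatment is not given in the sources used here beyond the 4 h in the control's label, so the control and NF 20 h may also differ in treatment time.

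NF are lipochitooligosaccharides, short chitin backbones bearing a fatty acid, which rhizobia release and which root hairs perceive through receptor kinases with LysM domains. GH18 is one of the plant enzyme families that hold chitinases, which cut bonds within chitin chains. In Medicago truncatula a GH18 enzyme known as the Nod factor hydrolase MtNFH1 cleaves the chitin backbone of NF. Which of the gene IDs encodes it is not given in the sources used here, so both genes are called by ID. Hydrolysis of NF is known as a way by which the host limits the amount of signal around its roots.

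The 5 libraries held between 39199411 and 47302574 counted read pairs, 72.1 to 73.0% of the pairs parsed. A count of 3, used as the floor of detection, equals 0.0634 to 0.0765 CPM (counts scaled to the same total in every library). As a check of the labels, 6 genes known to be induced by NF (MtENOD11, MtENOD12, MtNIN, MtERN1, MtNPL and MtNF-YA1) summed to 47.6 CPM in the control, 180 and 138 CPM after 4 h of NF, and 294 and 274 CPM after 20 h, with 1 of them at 0 in the control. All 6 were above the control in each NF library. The orthologs of 5 Arabidopsis root hair genes summed to 675 CPM in the control and to between 657 and 1031 CPM in the NF libraries, and none was at 0 in any library (lowest value 9.01 CPM). Within this sum, the ortholog of RSL4 had 9.01 CPM in the control and 15.9 to 19.4 CPM in the NF libraries. That of RBOHC had 96.3 CPM in the control and 75.2 to 86.3 CPM in the NF libraries. None of the 5 passed at an adjusted p under 0.05 at 4 h or 20 h (edgeR). Of the 6 NF induced genes, edgeR called 2 higher at 4 h and 6 at 20 h, beside 0.525% and 1.1% of all genes tested. MtENOD11, with 0.0439 CPM in the control and 8.05 and 2.88 CPM in NF 4 h, was not called at 4 h (adjusted p = 0.0858, edgeR). A gene that was not called is therefore not shown to be unchanged.

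Medtr4g116990 was present at a low level in the control and was about 8 to 11 times higher in each NF library. Its transcript, of 1309 bases, collected 102 pairs in the control, 1025 and 733 after 4 h of NF, and 903 and 839 after 20 h. This corresponded to 2.24 CPM in the control (exact Poisson interval at 95%, 1.82 to 2.72), to 23.6 and 18.7 CPM after 4 h of NF, and to 21.5 and 17.7 CPM after 20 h. The control lay below all 4 NF libraries, and the libraries of both NF treatments overlapped. Per kilobase of transcript, the level was 1.71 FPKM in the control, 18.1 and 14.3 FPKM after 4 h of NF, and 16.4 and 13.5 FPKM after 20 h. Each NF library thus stood 10.6, 8.36, 9.62 and 7.93 times above the control, in the same order. The treatment means were 21.2 ± 3.50 CPM at 4 h of NF and 19.6 ± 2.67 CPM at 20 h (SD, n = 2).

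Medtr4g117000 was counted on few pairs in the control and was, per kilobase, the more abundant of the pair in every NF library. Its transcript, of 1466 bases, collected 13 pairs in the control, 1735 and 907 after 4 h of NF, and 1031 and 1217 after 20 h. In CPM this gave 0.285 in the control (0.152 to 0.488, exact Poisson), 40.0 and 23.1 after 4 h of NF, and 24.6 and 25.7 after 20 h. The control was again below the NF libraries, with its whole interval above the floor of detection, and both NF 20 h values lay between the NF 4 h values. Per kilobase the level was 0.195 FPKM in the control, 27.3 and 15.8 FPKM after 4 h of NF, and 16.8 and 17.5 FPKM after 20 h. The NF libraries stood 140, 81.1, 86.2 and 90.2 times above the control, in this order. The treatment means were 31.6 ± 11.9 CPM at 4 h of NF and 25.1 ± 0.821 CPM at 20 h (SD, n = 2).

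**Figure D1:**
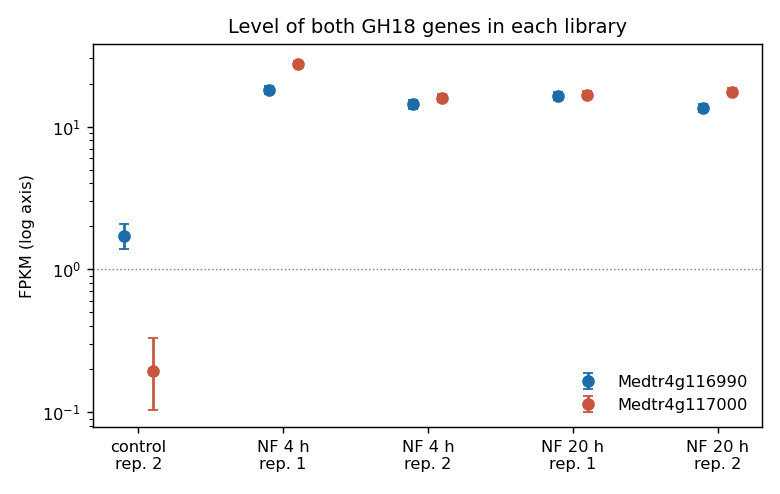
Level of Medtr4g116990 (blue) and Medtr4g117000 (red) in each library, in FPKM on a log axis, with exact Poisson intervals at 95% as bars and a dotted line at 1 FPKM. In the control both genes sit below their NF values, Medtr4g116990 at 1.71 and Medtr4g117000 at 0.195 FPKM, while all NF libraries lie between 13.5 and 27.3 FPKM.

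The fitted log2 fold changes against the control, from edgeR's quasi-likelihood model across all genes, were 3.24 (SE 0.28) at 4 h and 3.13 (SE 0.28) at 20 h for Medtr4g116990. For Medtr4g117000 they were 6.78 (SE 0.53) and 6.45 (SE 0.53). Both genes passed the filter on low counts, and both contrasts share the single control library. For reference, the median log2 fold change over the 22091 genes tested was -0.034 at 4 h and -0.00015 at 20 h. When the pairs of both NF replicates were pooled, the ratio to the control, with counting error only, was 9.52 (7.79 to 11.7) at 4 h and 8.72 (7.14 to 10.8) at 20 h for Medtr4g116990. The same ratio was 112 (65.5 to 211) and 88.3 (51.5 to 166) for Medtr4g117000, where the width of the interval comes from the 13 control pairs. These intervals do not cover the spread between control samples, for which the single control library gives no measure. In bulk RNA of root hairs, more cells expressing a gene and more RNA per cell cannot be told apart.

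In the order of all 50897 genes by CPM, Medtr4g116990 moved from position 14904 in the control to positions 6749 and 7791 after 4 h of NF and 7337 and 8022 after 20 h. Medtr4g117000 moved from position 20248 to positions 4743 and 6913 after 4 h of NF and 6791 and 6455 after 20 h. The gene lower in the order in the control was thus the higher of the pair in each NF library.

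The makeup of the pair was different in the control and in the NF libraries. Medtr4g117000 accounted for 11.3% of the pairs of both genes in the control (13 of 115, Wilson interval 6.73 to 18.4%). In NF 4 h its share was 62.9% (61.0 to 64.6) and 55.3% (52.9 to 57.7), and in NF 20 h it was 53.3% (51.1 to 55.5) and 59.2% (57.1 to 61.3). The control interval lay below those of all 4 NF libraries, whereas the shares of both NF treatments overlapped. The intervals of the NF 4 h replicates did not overlap each other, nor did those of the NF 20 h replicates, so the spread between replicates was larger than counting error. Per kilobase, the ratio of Medtr4g117000 to Medtr4g116990 was 0.114 in the control, 1.51 and 1.10 after 4 h of NF, and 1.02 and 1.30 after 20 h. The pair together had 1.90 FPKM in the control, 45.4 and 30.1 FPKM after 4 h of NF, and 33.2 and 31.1 FPKM after 20 h.

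**Figure D2:**
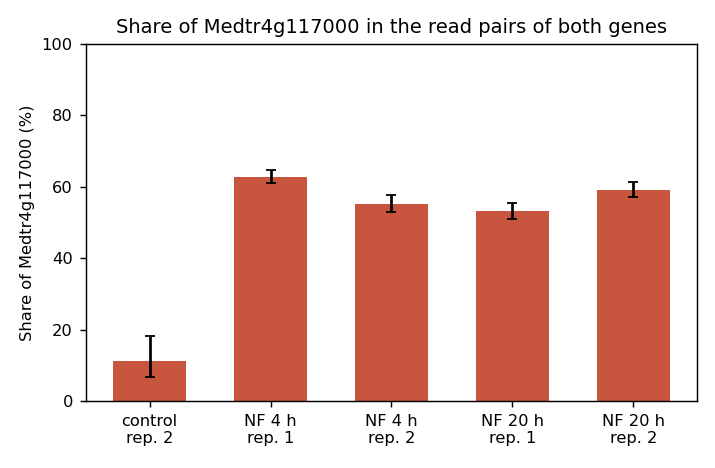
Share (%) of Medtr4g117000 in the read pairs counted for both GH18 genes, in each library, with Wilson intervals at 95% as error bars. The share was 11.3% in the control and between 53.3 and 62.9% in the NF libraries.

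The only contrast of the pair that does not use the control is that between both NF treatments, and neither gene passed its test. Medtr4g116990 differed by -0.11 on the log2 scale between NF 20 h and NF 4 h (SE 0.18, adjusted p = 0.948, edgeR quasi-likelihood test). Medtr4g117000 differed by -0.33 (SE 0.27, adjusted p = 0.824). Of all genes tested, 0.0498% were called in this contrast at an adjusted p under 0.05 (0.0362% higher and 0.0136% lower in NF 20 h). The sign depended on single libraries. Without NF 4 h replicate 1 the differences became 0.070 and 0.12, and without NF 20 h replicate 2 that of Medtr4g116990 became 0.023. The order of the levels in each gene was thus control below both NF treatments, and the values of NF 4 h and NF 20 h overlapped.

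The replicates of NF 4 h differed more for Medtr4g117000 than for most genes. Replicate 1 was 1.73 times replicate 2 for Medtr4g117000 and 1.26 times for Medtr4g116990, against a median of 0.979 over the 17061 genes that averaged at least 1 CPM, and 98.5% of these genes had a lower ratio than Medtr4g117000. The 6 NF induced genes were all higher in replicate 1 of NF 4 h (1.03 to 3.15 times), and the 5 root hair orthologs were all lower in it (0.483 to 0.873 times). In NF 20 h the ratio of replicate 1 to replicate 2 was 1.21 for Medtr4g116990 and 0.955 for Medtr4g117000, with a median over genes of 1.02. There, 5 of the 6 NF induced genes were higher in replicate 1 (0.948 to 1.55 times), and 2 of the 5 root hair orthologs were (0.538 to 1.16 times). The part of these differences in the spread of the GH18 pair was not tested.

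Counts of both genes rest on reads with a single best transcript, since reads that scored equally on another transcript had been removed before deposit (7.42 to 8.44% of the mapped reads of a library). How many of these reads came from the GH18 pair cannot be read from the counts, and the sequences of both genes were not analysed here. Over the 5 libraries, the reads in counted pairs of Medtr4g116990 equalled 83.8% of its count of single reads, against a median of 91.6% over genes, and 13.4% of the genes were lower still. For Medtr4g117000 the value was 93.4%, close to that median. Counting single reads instead of pairs gave log2 fold changes of 3.19 at 4 h and 3.11 at 20 h for Medtr4g116990, and of 7.05 and 6.73 for Medtr4g117000. In the control, Medtr4g117000 had 23 single reads beside its 13 pairs, fewer than the mates of these pairs, so the count of single reads did not include every mate of a counted pair.

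The study's tables annotate 4 other genes as GH18, and all 4 had enough reads to be tested. Over all genes tested, 0.684% were called at 4 h and 1.47% at 20 h in either direction. None of the 4 was called higher in NF at either time, where 0.525% of all genes were called higher at 4 h and 1.1% at 20 h. At 4 h none was called lower either by edgeR, beside 0.158% of all genes. At an unadjusted p under 0.05, 1 was lower at 4 h, beside 2051 of the 22091 genes tested in either direction. DESeq2 called 1 at 4 h, beside 577 of all genes. At 20 h, 1 was called lower by edgeR, beside 0.371% of all genes. At an unadjusted p under 0.05, 2 were lower at 20 h, beside 2607 of all genes in either direction. Some of these tables list genes by their response in these samples, here and in the lists that follow, so the counts are not independent evidence of a direction.

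The GH18 gene called lower at 20 h was Medtr3g110320. Its level was 52.2 CPM in the control, 23.2 and 28.2 CPM after 4 h of NF, and 17.9 and 15.0 CPM after 20 h. All NF libraries were below the control, and those of NF 20 h were below those of NF 4 h. Its log2 fold change was -1.67 at 20 h (SE 0.19, adjusted p = 0.0304, edgeR) and -1.02 at 4 h (SE 0.19, adjusted p = 0.124), which did not pass. The value at 4 h did pass with DESeq2, in edgeR without an expression filter and in edgeR with the replicate number as a block.

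Medtr0002s1060 made up most of the transcripts of the 6 genes annotated as GH18. Genes annotated as chitinases, some of which may also belong to GH18, are not part of this sum. Medtr0002s1060 had 4690 CPM in the control, 3890 and 3340 CPM after 4 h of NF, and 3515 and 2058 CPM after 20 h. The log2 fold changes were -0.38 (SE 0.35, adjusted p = 0.916, edgeR) and -0.75 (SE 0.34, adjusted p = 0.512). Per kilobase, this gene held 93.7 to 96.3% of the summed FPKM of the 6 GH18 genes in every library. The pair held 0.0591% of that sum in the control, 1.67 and 1.28% after 4 h of NF, and 1.37 and 2.14% after 20 h. In the order of the 6 genes by FPKM, Medtr4g117000 moved from the last place in the control to place 3, 4, 3 and 3 in the NF libraries. Medtr4g116990 was in place 5 except in NF 20 h replicate 1, where it was in place 4.

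The other GH18 genes did not pass the test at either time in the main fit. With the replicate number as a block, Medtr1g013150 and Medtr2g036260 were called lower at 20 h (log2 fold changes -0.46 and -1.09). So was Medtr0002s1060 (-1.04), beside 2706 of all genes called in that fit. Medtr1g013150 had 104 CPM in the control, 116 and 124 CPM after 4 h of NF, and 79.5 and 72.6 CPM after 20 h (log2 fold changes 0.21 and -0.45). Medtr2g036260 was at 2.96 CPM in the control (2.36 FPKM, beside 1.71 FPKM for Medtr4g116990), and at 9.76 and 3.01 CPM after 4 h of NF and 3.79 and 1.50 CPM after 20 h. Its replicates differed more than the groups did, with log2 fold changes of 1.11 (SE 0.84) and -0.17 (SE 0.82). Without NF 4 h replicate 1 the value at 4 h became 0.024, and without NF 20 h replicate 2 that at 20 h became 0.36.

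**Figure D3:**
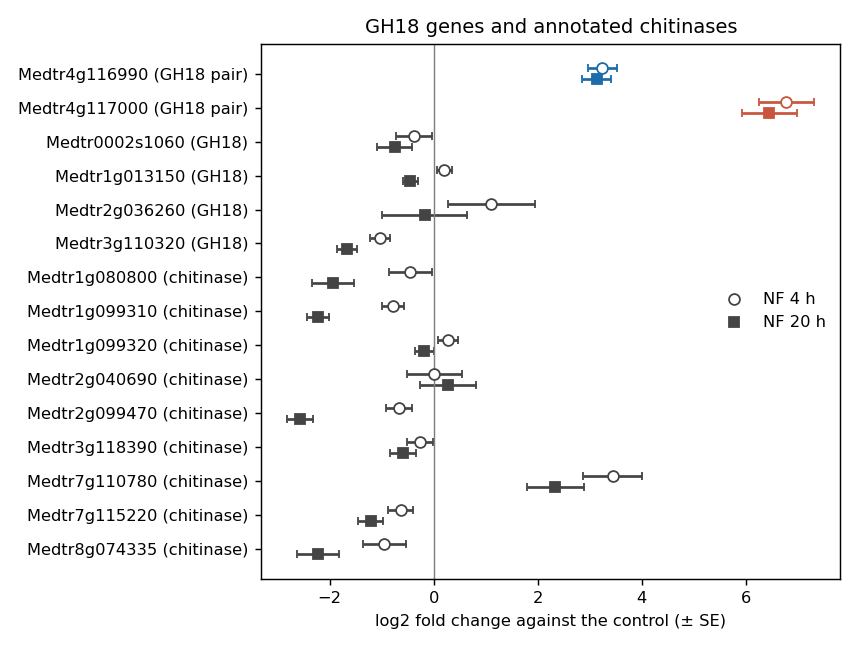
Log2 fold change against the control in NF 4 h (open circles) and NF 20 h (filled squares) for the GH18 pair, the 4 other GH18 genes and 9 annotated chitinases, with standard errors as bars. The pair stands at 3.24 and 3.13 (Medtr4g116990) and at 6.78 and 6.45 (Medtr4g117000), and of the others Medtr7g110780 is the one that lies far to the right of 0 at both times (3.44 and 2.33, not called by edgeR and called by DESeq2).

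Chitinases of plants act on fungal chitin in defence, and some of them can also cut NF. The tables annotate 9 genes as chitinases, beside those named GH18. At 4 h edgeR called none, beside 0.684% of all genes, and DESeq2 called 1, beside 577 of all genes. At an unadjusted p under 0.05, 1 was higher and 3 were lower at 4 h, where 2051 of the 22091 genes tested were under it in either direction. At 20 h edgeR called none higher, beside 1.1% of all genes, and 2 lower, beside 0.371% of all genes. At an unadjusted p under 0.05, 1 was higher and 5 were lower at 20 h, beside 2607 of all genes in either direction. DESeq2 called 6 of the 9 at 20 h, Medtr7g110780 higher among them, beside 906 of all genes in either direction. The median log2 fold change of the 9 chitinases was -0.45 at 4 h and -1.21 at 20 h, beside -0.034 and -0.00015 over all genes tested.

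Both chitinases called at 20 h fell by more than 2 on the log2 scale. Medtr1g099310 went from 447 CPM in the control, with 293 and 227 CPM in NF 4 h, to 87.0 and 105 CPM in NF 20 h (log2 fold change -2.22, SE 0.22, adjusted p = 0.0228, edgeR). Medtr2g099470, annotated as class IV, went from 77.8 CPM, with 39.2 and 58.8 CPM in NF 4 h, to 13.0 and 13.4 CPM in NF 20 h (log2 fold change -2.56, SE 0.25, adjusted p = 0.0228). In both genes the NF 20 h libraries lay below those of NF 4 h. Leaving out a library raised the number of chitinases called at 20 h to 5 without NF 4 h replicate 1, to 5 without NF 4 h replicate 2 and to 4 without NF 20 h replicate 2, and left it at 2 without NF 20 h replicate 1.

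Medtr7g110780, singled out after its values were seen, was the one chitinase with all 4 NF libraries above the control. It had 1.54 CPM in the control, 22.8 and 10.6 CPM after 4 h of NF, and 8.67 and 6.85 CPM after 20 h. Its log2 fold changes were 3.44 (SE 0.57, adjusted p = 0.0912, edgeR) and 2.33 (SE 0.55, adjusted p = 0.150), and did not pass. It was called at both times by DESeq2 (adjusted p 9.84e-10 and 0.000205), in edgeR without an expression filter (0.0119 and 0.0420) and in edgeR with the replicate block (0.000381 and 0.00258). Without NF 4 h replicate 1, NF 4 h replicate 2 or NF 20 h replicate 2 it was called at 4 h (adjusted p 0.0107, 0.00131 and 0.0444), and without either NF 4 h library also at 20 h (0.00839 and 0.00651). The most abundant chitinase, Medtr1g099320, had 1321 CPM in the control, 1686 and 1526 CPM after 4 h of NF, and 1221 and 1114 CPM after 20 h, and was not called. Medtr3g118390, annotated as class I, had 523 CPM in the control, 410 and 459 CPM after 4 h of NF, and 287 and 411 CPM after 20 h, and was not called. Medtr8g074335, annotated as class Ib, had 318 CPM in the control, 113 and 217 CPM after 4 h of NF, and 55.6 and 80.5 CPM after 20 h, all below the control. Its log2 fold changes were -0.95 (SE 0.41, adjusted p = 0.588, edgeR) and -2.23 (SE 0.40, adjusted p = 0.0798), which did not pass. At 20 h it was called without NF 4 h replicate 1 or NF 4 h replicate 2 (adjusted p 0.00304 and 0.00315), by DESeq2 (8.17e-07) and in edgeR without an expression filter (0.0119) or with the replicate block (5.95e-05).

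LysM domains bind chitin and related oligosaccharides, and LysM receptor kinases perceive NF. Of the 15 genes annotated with LysM, edgeR called 2 higher and none lower at 4 h, beside 0.525% and 0.158% of all genes, and 2 higher and 1 lower at 20 h, beside 1.1% and 0.371%. At an unadjusted p under 0.05, 4 were higher and 5 lower at 4 h, and 5 were higher and 5 lower at 20 h. Of the 22091 genes tested, 2051 at 4 h and 2607 at 20 h were under it in either direction. DESeq2 called 4 of the 15 at 4 h and 7 at 20 h, beside 577 and 906 of all genes. The list's median log2 fold change was -0.26 at 4 h and -0.20 at 20 h. Leaving out NF 4 h replicate 2 raised the number called at 4 h to 4.

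MtLYK10 (Medtr5g033490), a LysM type receptor kinase, was, like Medtr4g117000, counted on few pairs in the control (14). It had 0.307 CPM in the control, 31.5 and 17.6 CPM after 4 h of NF, and 37.6 and 27.7 CPM after 20 h. The log2 fold changes were 6.31 (SE 0.60, adjusted p = 0.0295, edgeR) and 6.72 (SE 0.61, adjusted p = 0.0226). As in Medtr4g117000, NF 4 h replicate 1 was above replicate 2, by 1.79 times. Medtr4g058570, a LysM-domain receptor-like kinase, was called higher at both times (adjusted p = 0.0297 and 0.0258) with 2 pairs in the control, under the floor of detection, and 3.94 and 3.16 CPM after 4 h of NF and 3.53 and 2.43 CPM after 20 h.

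MtLYM2 (Medtr4g094730), a LysM protein anchored at the membrane, was the LysM gene called lower at 20 h. Its level was 311 CPM in the control, 210 and 231 CPM after 4 h of NF, and 148 and 155 CPM after 20 h (log2 fold change -1.04, SE 0.15, adjusted p = 0.0490, edgeR). This call was lost when any 1 of the 4 NF libraries was left out (adjusted p 0.0570 to 0.0767).

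None of the tested genes that flank the pair was called against the control in the main edgeR fit. Of the 10 gene IDs listed on each side, 10 of the 20 had enough reads to be tested, and edgeR called none in NF 4 h or NF 20 h. Over all genes tested, 0.684% were called at 4 h and 1.47% at 20 h. At these shares few or no calls would be found among 10 genes, so the absence of calls is not read as a trait of the locus. At an unadjusted p under 0.05, 2 were lower at 4 h, and 1 was higher and 1 lower at 20 h. The numbers over all 22091 genes tested were 2051 and 2607 in either direction. DESeq2 called 1 at 4 h and 0 at 20 h, beside 577 and 906 of all genes. The other 10 IDs had between 0 and 7 pairs in any library.

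Medtr4g116980, the ID before the pair, had 457 pairs in the control, 469 and 441 after 4 h of NF, and 495 and 611 after 20 h (log2 fold changes 0.14, SE 0.18, and 0.30, SE 0.18). Medtr4g117010, the ID after the pair, had 0 pairs in all 5 libraries, and Medtr4g117020 had 0 pairs in the control and 4, 3, 1 and 1 in the NF libraries. The nearest tested gene on that side, Medtr4g117030, had 418 pairs in the control, 488 and 412 after 4 h of NF, and 369 and 379 after 20 h (log2 fold changes 0.25, SE 0.19, and -0.13, SE 0.19). Neither of the tested genes next to the pair was called at 4 h or 20 h.

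One neighbour, Medtr4g117090, was singled out after its values were seen because its control stands far from the NF libraries in the other direction. It had 191 pairs in the control, 2 and 2 after 4 h of NF, and 1 and 33 after 20 h. It was not called at 4 h (adjusted p = 0.173, edgeR) or 20 h (adjusted p = 0.270) in the main fit. At 4 h it was called by DESeq2, in edgeR without an expression filter and in edgeR with the replicate block. With the block it was also called at 20 h. It was called at 4 h without NF 20 h replicate 1 or NF 20 h replicate 2 (adjusted p 0.00909 and 0.00757), and at 20 h without NF 20 h replicate 2 (0.0148).

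**Figure D4:**
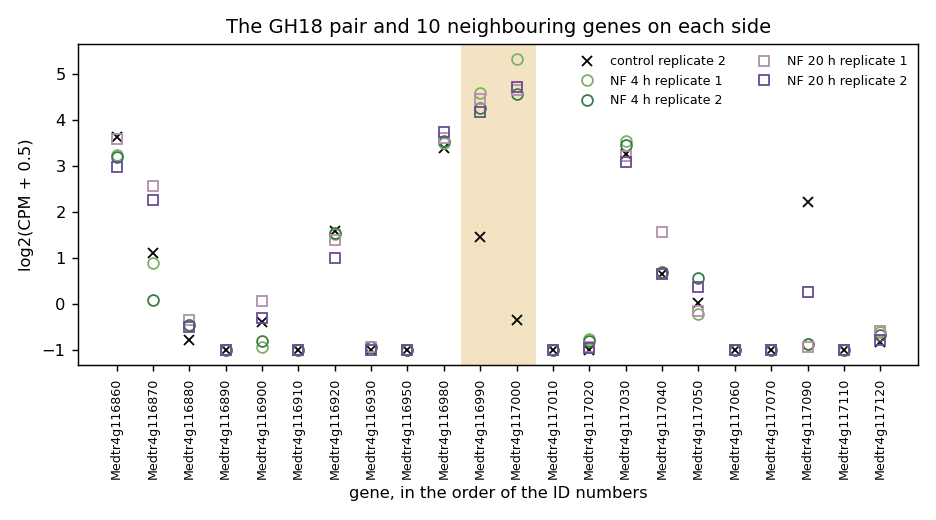
Level of the GH18 pair (shaded) and of the 10 gene IDs listed on each side, in the order of their ID numbers, as log2(CPM + 0.5), with 1 symbol per library. In the shaded pair the control (cross) lies apart below the NF libraries, while in Medtr4g116980 and Medtr4g117030 the symbols of all 5 libraries lie together.

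To find the genes whose levels followed the same course, log2(CPM + 0.5) profiles over the 5 libraries were each centred on their own mean and compared by their root mean square difference, among genes averaging at least 1 CPM. This likeness is a description over 5 points that share the same libraries. For Medtr4g116990, the nearest of 17060 genes were Medtr4g058570 (difference 0.103), the LysM-domain receptor-like kinase named above, then Medtr8g101650 (0.159, MYB-like transcription factor), Medtr8g022270 (0.164, ABC transporter B family), Medtr7g018670 (0.166, annotated as an LRR and NB-ARC domain resistance protein) and Medtr8g020840 (0.171). The last is MtNSP1, a GRAS transcription factor required for NF signalling. MtNSP1 had 6.78 CPM in the control, 62.8 and 48.7 CPM after 4 h of NF, and 42.6 and 39.9 CPM after 20 h. With a pseudocount of 1, 2 of these 5 genes (Medtr8g101650 and MtNSP1) stayed among the nearest 5. The other genes did not, namely Medtr4g058570 and Medtr7g018670, each with 2 pairs in the control, and Medtr8g022270, which had 10.2 CPM there. Against the control, the log2 fold changes of Medtr4g058570 were 6.25 at 4 h and 5.99 at 20 h, and those of Medtr7g018670 6.16 and 6.10. For Medtr4g116990 they were 3.24 and 3.13. The pseudocount of 0.5 narrows this gap for genes with few control pairs, so likeness does not mean an equal fold change.

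For Medtr4g117000 the nearest genes were Medtr5g025850 (0.176) and Medtr3g078250 (0.219), both annotated as LRR receptor-like kinases, Medtr4g088510 (0.303, hypothetical protein), MtLYK10 (0.358) and Medtr3g081140 (0.364, cysteine-rich TM module protein). All 5 stayed the nearest with a pseudocount of 1 and among genes averaging at least 5 CPM. Medtr5g025850 had 0.680 CPM in the control, 60.9 and 36.0 CPM after 4 h of NF, and 51.0 and 38.8 CPM after 20 h. NF 4 h replicate 1 was above replicate 2 in all 5, as in Medtr4g117000, an order that their choice by likeness over these same libraries largely fixes.

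The GH18 pair itself was less alike. Medtr4g116990 and Medtr4g117000 differed by 0.917 on this measure, which placed Medtr4g117000 at position 533 among the genes nearest to Medtr4g116990, and Medtr4g116990 at position 37 among those nearest to Medtr4g117000. The adjacent genes thus had the same direction in every NF library, with a step from the control of a different size.

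**Figure D5:**
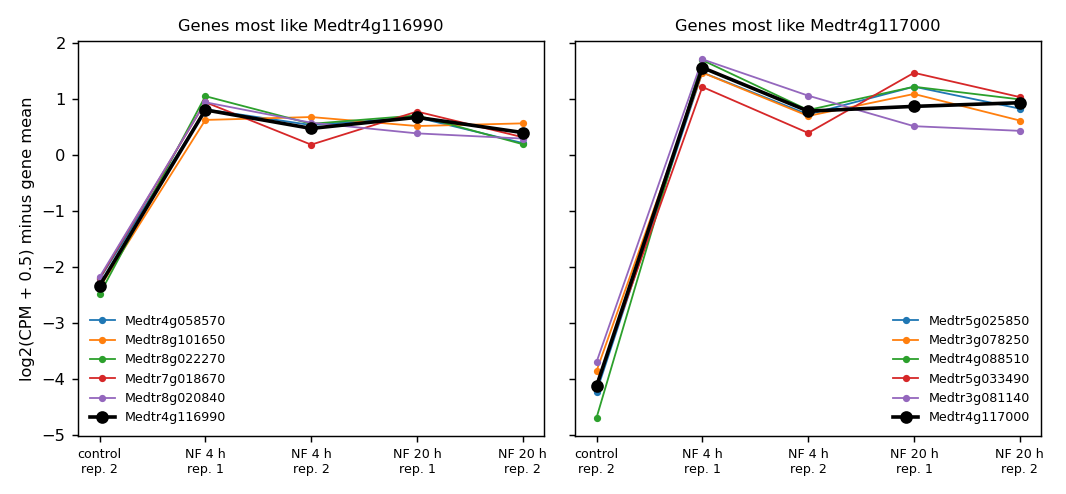
Profiles of log2(CPM + 0.5), minus each gene's own mean, over the 5 libraries for the 5 genes most like Medtr4g116990 (left) and Medtr4g117000 (right), the GH18 gene in black. All lines step up from the control to the NF libraries, by more in the right panel, and the root mean square differences to the black line are 0.103 to 0.171 on the left and 0.176 to 0.364 on the right.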

How the data were processed

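Polyadenylated RNA of root hairs was sequenced as read pairs. The authors trimmed the reads, mapped them with Bowtie 2 (version 2.0 in the submitters' processing notes, local mode) on the transcripts of Mt4.0v1, removed reads with equal best and second-best scores, and deposited whole-number counts of read pairs with both mates on the same transcript, without normalization. The deposited length of each transcript is in bases (used here for FPKM), and deposited counts of single reads served as an alternative. Whether counting used strand is not given in the sources used here.

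From the counts of pairs, CPM (counts over the library total) and FPKM (CPM per kilobase of deposited length) were computed here. Genes were tested with edgeR 4.0.16 in R 4.3.3 (quasi-likelihood test, library-size normalization, filterByExpr by group, 1 coefficient per treatment, all 5 libraries), which kept 22091 genes. The spread was estimated from the NF replicates, since the control has 1 library. The SE of a log2 fold change was derived from the fit as its absolute value over the square root of the quasi-likelihood F statistic. Genes with an adjusted p under 0.05 (Benjamini-Hochberg, over all genes tested) were called. Intervals are at 95% (exact Poisson for levels, Wilson for shares) and cover counting error only. Alternatives were the replicate block, TMM, DESeq2 1.42.0 (Wald test), no expression filter, each NF library left out and, chosen after seeing the data, single reads. The main fit was also run on simulated counts with a fixed spread and no replicate effect, to check the fold change it returned. That run does not cover the calls made where replicates differ as they do here.

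The GH18 pair and the gene lists were chosen with earlier results of these data known. The text names both GH18 genes, the other GH18 genes and chitinases that were called and the 4 of each list with the highest mean CPM, called neighbours, and the 5 genes most like each member of the pair. LysM genes that were called, the nearest flanking genes and the genes said to be singled out were added after their values were seen. Gene names and annotations come from the study's tables. None of the IDs matched the RefSeq table, so no sequence or coordinate is printed, and the stele marker was not used.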

Additional observations from a re-analysis of the deposited data

Results flagged for a closer look

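In 5 genes of the lists, both NF 4 h libraries lay on one side of the control and both NF 20 h libraries on the other. The genes looked at were the pair, 4 other GH18 genes, 9 chitinases, 15 LysM genes and 10 tested neighbours. How many of all genes tested showed this order was not counted, and the order rests on the single control library. The number is therefore not read as a trait of these lists. The difference between NF 20 h and NF 4 h was tested by edgeR's quasi-likelihood test, and none of the 5 passed at an adjusted p under 0.05. Both GH18 genes of the pair lay above the control in all NF libraries.

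Of the GH18 family, Medtr1g013150 differed by -0.66 on the log2 scale (adjusted p = 0.138), with 104 CPM in the control. Among the chitinases, Medtr1g099320 differed by -0.46 (adjusted p = 0.369).

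Of the neighbours of the pair, Medtr4g116870, annotated as the DNA replication licensing factor MCM4, differed by 2.33 (adjusted p = 0.141), with 76 pairs in the control, 59 and 22 after 4 h of NF, and 228 and 203 after 20 h. Medtr4g116900 differed by 3.07 (adjusted p = 0.219) on few pairs, 12 in the control, 1 and 3 after 4 h of NF, and 23 and 15 after 20 h. Medtr4g117030 differed by -0.37 (adjusted p = 0.488).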

How the results depend on the processing

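The values of the GH18 pair against the control kept their direction under every alternative run. Medtr4g116990 ranged from 3.06 to 3.40 on the log2 scale at 4 h and from 2.97 to 3.26 at 20 h, and Medtr4g117000 from 6.33 to 7.12 and from 6.28 to 6.73. With 1 library left out, the difference between NF 20 h and NF 4 h ran from -0.27 to 0.070 for Medtr4g116990 (0.070 without NF 4 h replicate 1, 0.023 without NF 20 h replicate 2) and from -0.67 to 0.12 for Medtr4g117000 (0.12 without NF 4 h replicate 1), so its sign turned. Signs also turned for Medtr2g036260 at 20 h (-0.98 to 0.36, the latter without NF 20 h replicate 2) and for Medtr2g040690, at 4 h (-0.30 to 0.27, the former without NF 4 h replicate 1) and at 20 h (-0.51 to 0.78, the former without NF 20 h replicate 1), and for the latter with the replicate block (-0.47 at 4 h, -0.32 at 20 h).

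Counts of called genes moved with the fit, and the cause was not tested. At 4 h, 151 genes were called against 577 with DESeq2 and 440 without an expression filter, and at 20 h 325 against 906 and 717. Between NF 20 h and NF 4 h the counts were 11, 718 and 308, and 1 with single reads counted. Leaving out a library gave 210 to 366 genes at 4 h, 350 to 639 at 20 h and 0 to 108 between them.

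The labels number the replicates 1 and 2, but do not say that a number marks a shared batch. The main fit has no term for this number, and the only control library is a replicate 2. Across 22091 genes the difference between replicates correlated at r = 0.505 between NF 4 h and NF 20 h, so part of it went with the replicate number. Its source was not tested. With the replicate block, 1650 genes were called at 4 h, 2706 at 20 h and 1952 between them. The block called 1, 4 and 3 other GH18 genes, 3, 6 and 7 chitinases, 7, 8 and 4 LysM genes and 1, 1 and 2 neighbours in these 3 contrasts. All 4 GH18 genes called at 20 h were lower than in the control.

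DESeq2 called 1 other GH18 gene at 4 h and 2 between the NF treatments, 1, 6 and 4 chitinases, 4, 7 and 1 LysM genes, and 1 neighbour both at 4 h and between the NF treatments. Without an expression filter, 1 GH18 gene was called at 4 h, and 1, 6 and 2 chitinases in the 3 contrasts. The same fit called 3 LysM genes at 4 h and 5 at 20 h, and 1 neighbour both at 4 h and between the NF treatments. Leaving out a library gave 0 to 1 chitinases at 4 h, 2 to 5 at 20 h and 0 to 2 between the NF treatments, 2 to 4 LysM genes at 4 h, and 0 to 1 neighbours in each contrast. TMM changed no count of these lists. Levels under about 3 pairs, as in several neighbours and in the control of Medtr4g058570, are limited by depth.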
